A study of Mus musculus with 12 samples.

Results

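Sugct, Gpr137b-ps and Gpr137b, 3 of the 24062 gene rows counted in each kidney, lie on mouse chromosome 13. Sugct and Gpr137b-ps were chosen by their fall in let-7 KO kidneys against let-7 WT kidneys, and Gpr137b was added because it is the near copy of Gpr137b-ps. The fall in let-7 KO is therefore a description here and carries no test for those 2 genes, nor does any other comparison that uses the let-7 WT kidneys. Whole kidneys at postnatal day 3 (P3) were sequenced as RNA, with 3 kidneys from 2 litters in each of 4 groups, 12 in all. LIN28B Wt1 kidneys, labelled LIN28OE (C57BL/6), carried TRE-LIN28B, lox-STOP-lox-rtTA and Wt1-Cre, so that a pulse of doxycycline late in gestation switched on human LIN28B in cells of the Wt1 lineage. Their controls were WT littermates on C57BL/6. The let-7 KO kidneys carried a constitutive deletion of let-7a1, let-7d and let-7f1, on a background labelled Mixed (CD1 and C57BL/6), and were compared with WT littermates of the same mixed background, called let-7 WT.

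Sugct encodes a mitochondrial CoA transferase that attaches CoA to glutarate, an intermediate of lysine, hydroxylysine and tryptophan breakdown, and loss of the human enzyme causes glutaric aciduria type III, a largely benign excess of urinary glutarate. These breakdown routes run largely in liver and in the proximal tubule of the kidney, the segment that reabsorbs most filtered solutes. Gpr137b encodes a multipass protein of the lysosomal membrane that takes part in Rag GTPase and mTORC1 signalling. LIN28B blocks the maturation of let-7 microRNAs, which repress messages that carry a match to their seed.

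Sugct spans chr13:16857472-17695553 (GRCm38, minus strand), a locus of 838082 bases whose merged exons cover 3429 bases. Gpr137b-ps, annotated as a transcribed unprocessed pseudogene, lies at chr13:12615057-12650388 on the same strand. Gpr137b lies at chr13:13357620-13394014, also on the minus strand, and the 2 copies are separated by 0.707 Mb. Sugct lies 3.463 Mb beyond Gpr137b. The deleted let-7 genes occupy chr13:48536012-48538272, on the same chromosome but 30.84 Mb from Sugct, 35.142 Mb from Gpr137b and 35.886 Mb from Gpr137b-ps.

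The coding sequence of Gpr137b (1155 bases, in transcript Gpr137b-201) aligned to transcript Gpr137b-ps-203 with 99.57% identity, with 5 substitutions and 1 additional base in the pseudogene. Positions are counted from 1 at the A of the Gpr137b start codon, with the Gpr137b base first, and the substitutions are C621G, A697G, C819T, C894T and A1064G. The additional base lies after position 102. The stretch around it is shown because it is the only place where the copies differ in length within the coding sequence. The capital marks the added base, and both are given in transcript direction, at chr13:13393378-13393405 for Gpr137b and chr13:12650170-12650198 for Gpr137b-ps.
Gpr137b: tcaccgcggtctacaccgtcttctacgc
Gpr137b-ps: tcaccgcggtctacAaccgtcttctacgc
The annotated coding sequence of Gpr137b-201 holds 384 codons before its stop. The longest open frame was 269 codons in Gpr137b-ps-203, and 277, 269 and 183 codons in transcripts Gpr137b-ps-204, Gpr137b-ps-202 and Gpr137b-ps-201. Reads from stretches that the copies share cannot be assigned to one of them by sequence. Of all 75-base windows over the annotated transcripts, 77.92% were found only in Gpr137b-ps for that gene and 78.61% only in Gpr137b for the other, whereas 98.1% of Sugct windows were found in no other gene. In transcript Gpr137b-ps-203 alone, 44.6% of 75-base windows also occurred in Gpr137b. How the authors' counting treated reads that align to both copies is not given in the sources used here, so the values of these 2 genes are uncertain to that extent.

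The mature sequences of the deleted let-7 genes are shown because a seed match is how they would recognize a message. They are from RefSeq (GRCm38.p6), with the seed, bases 2 to 8, in capitals.
let-7a-5p: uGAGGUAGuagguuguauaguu
let-7d-5p: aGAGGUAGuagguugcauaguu
let-7f-5p: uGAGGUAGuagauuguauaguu
All 3 share one seed. The letters CTACCTC, which pair with it, and the overlapping letters TACCTCA were searched on the sense strand of the longest annotated 3′ UTR. Neither was found in the 1173 bases of Sugct or the 2324 bases of Gpr137b, against 9.2% and 9.9% of 19659 genes that hold them.

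Total counts per kidney ranged from 39926235 to 61872736, and the levels below are CPM (counts scaled to library size, with trimmed-mean factors over the 12 kidneys). The mouse Lin28b row, which need not capture the human transgene, held 232, 224 and 71 counts in LIN28B Wt1 kidneys against 0, 18 and 33 in their controls. The rows of Mirlet7a-1, Mirlet7d and Mirlet7f-1 held 0 counts in all 3 let-7 KO kidneys, but the let-7 WT kidneys held at most 35, so this library type checks the deletion only weakly.

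Sugct was abundant in both sets of WT kidneys, lower in LIN28B Wt1 kidneys and lowest in let-7 KO kidneys. The C57BL/6 controls held 6480, 4771 and 6170 counts, or 109, 109 and 117 CPM. LIN28B Wt1 kidneys held 3259, 3629 and 2214 counts, or 53.3, 67.9 and 36.4 CPM. Every LIN28B Wt1 kidney was below every control. The let-7 WT kidneys held 8909, 3899 and 3942 counts, or 151.8, 71.6 and 66.9 CPM, so that 1 kidney of litter 1 stood above the other two. The let-7 KO kidneys held 635, 469 and 386 counts, or 10.5, 8.74 and 10.8 CPM, below every other kidney of the study. In order, the means were 112.0 ± 4.76 in controls, 96.8 ± 47.7 in let-7 WT, 52.5 ± 15.7 in LIN28B Wt1 and 9.9995 ± 1.09 CPM in let-7 KO (SD, n = 3 each). Controls and let-7 WT overlapped, as did let-7 WT and LIN28B Wt1.

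**Figure D1:**
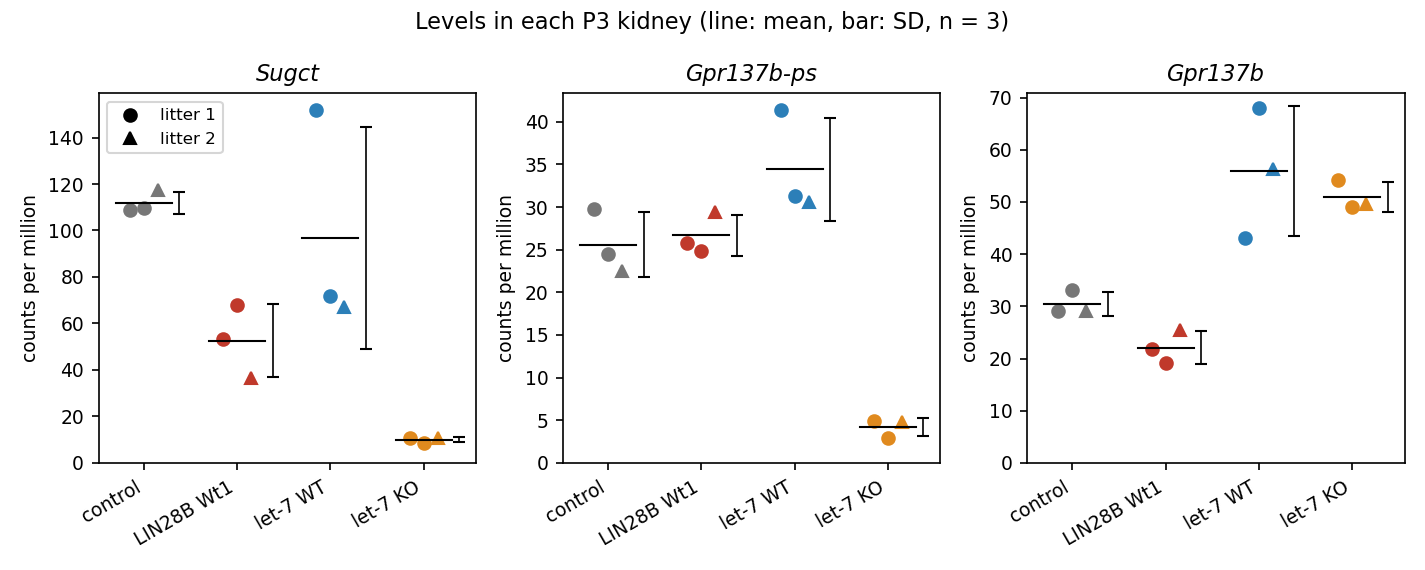
CPM of Sugct, Gpr137b-ps and Gpr137b (vertical axes) in each of the 12 kidneys by group, where circles are litter 1, triangles are litter 2, lines are means and bars are SD (n = 3). Sugct and Gpr137b-ps are lowest in the 3 let-7 KO kidneys, whereas Gpr137b in let-7 KO lies within the range of let-7 WT.

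Gpr137b-ps was low only in let-7 KO kidneys among the 4 groups. The C57BL/6 controls held 1772, 1065 and 1182 counts (29.8, 24.4 and 22.5 CPM). The LIN28B Wt1 kidneys held 1577, 1328 and 1786 counts (25.8, 24.8 and 29.4 CPM) and overlapped the controls. The let-7 WT kidneys held 2429, 1706 and 1800 counts (41.4, 31.3 and 30.6 CPM), of which the highest came from the kidney that was also highest for Sugct. In let-7 KO kidneys 296, 159 and 171 counts remained (4.90, 2.96 and 4.76 CPM). The means were 25.6 ± 3.78, 26.7 ± 2.41, 34.4 ± 6.04 and 4.21 ± 1.08 CPM in the same order of groups (SD, n = 3 each).

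Gpr137b, the intact copy, was higher in both mixed-background groups than in both C57BL/6 groups. It held 1731, 1445 and 1526 counts in controls (29.1, 33.2 and 29.1 CPM) and 1331, 1023 and 1542 counts in LIN28B Wt1 kidneys (21.8, 19.1 and 25.4 CPM). The let-7 WT kidneys held 2531, 3704 and 3322 counts (43.1, 68.0 and 56.4 CPM). The let-7 KO kidneys held 3280, 2627 and 1779 counts (54.2, 49.0 and 49.6 CPM), all within the let-7 WT range. The lowest mixed-background kidney, at 43.1 CPM, was the let-7 WT kidney with the highest Sugct and Gpr137b-ps. Per kilobase of merged exon, the level in controls was 32.7 ± 1.39 CPM for Sugct, 6.06 ± 0.468 for Gpr137b and 5.42 ± 0.802 for Gpr137b-ps (SD, n = 3), and the last pair did not differ beyond their spread.

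LIN28B overexpression was compared with WT littermates in 6 kidneys that played no part in choosing the genes. Sugct fell, Gpr137b had a lower mean that did not pass the threshold, and Gpr137b-ps showed no detectable difference. Genes were called here at an unadjusted p below 0.01 in edgeR's quasi-likelihood test, which 3.25% of the 15793 genes passed as higher and 4.08% as lower, and 1.23% had an adjusted p below 0.05. Sugct had a log2 fold change of -1.09 (SE 0.21), a 2.13-fold fall, with an edgeR p of 0.000468 and a Benjamini-Hochberg adjusted p of 0.0437. The exact permutation test (two-sided) gave p = 0.1, the smallest that 3 against 3 kidneys allow. The adjusted p was below 0.05 in 4 of 11 alternative settings and ranged from 0.000107 to 0.218 (edgeR and DESeq2), whereas the unadjusted p stayed below 0.01 in all 11. The adjusted p exceeded 0.05 with litter as a block, in 1 fit of all 12 kidneys, and when any kidney other than the LIN28B Wt1 kidney with 2214 counts was left out. Gpr137b had a log2 fold change of -0.46 (SE 0.19, 95% interval -0.89 to -0.02). Its exact permutation test (two-sided) gave p = 0.1, beside an edgeR p of 0.0407, above the 0.01 threshold, and an adjusted p of 0.25. The groups did not overlap, but 3 against 3 kidneys allow no exact permutation p below that 0.1. Gpr137b-ps had a log2 fold change of 0.06 (SE 0.20, 95% interval -0.38 to 0.50; edgeR adjusted p = 0.914).

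**Figure D2:**
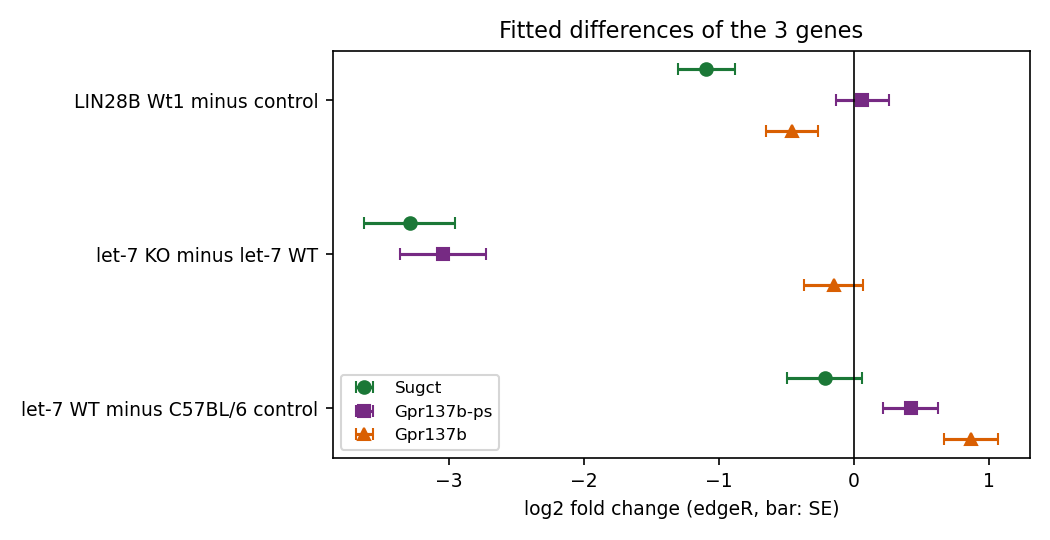
Log2 fold changes (horizontal axis; bars are SE) of the 3 genes in 3 comparisons of 3 against 3 kidneys. In LIN28B Wt1 only Sugct has a value near -1, in let-7 KO Sugct and Gpr137b-ps lie near -3, and Gpr137b has its highest value in let-7 WT against C57BL/6 controls.

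In let-7 KO against let-7 WT kidneys, Sugct and Gpr137b-ps, the genes selected on this comparison, had log2 fold changes of -3.29 (SE 0.34) and -3.05 (SE 0.32), which are falls of 9.79-fold and 8.27-fold. No kidney overlapped between the groups for either gene. Of the 565 chromosome 13 genes tested they ranked 6 and 7 by the size of the fall, which restates how they were chosen. The 5 genes with larger falls, from Ryr2 (-3.49) to Btn2a2 (-9.81), averaged 15 to 285.5 counts, against 3040 for Sugct and 1093.5 for Gpr137b-ps. The next gene by size was Zfp429 (-3.02). Across all 15500 genes 1.1% passed the same threshold as higher and 1.63% as lower, and nothing is read from that share here because the comparison chose the genes.

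Gpr137b in the same comparison was not chosen for its value and had a log2 fold change of -0.15 (SE 0.22, 95% interval -0.63 to 0.33; edgeR adjusted p = 0.844), with overlapping groups. The fall of its copy was used to choose that copy, so the copies are not set against each other by a test in this comparison. For Gpr137b, the LIN28B Wt1 minus control and let-7 KO minus let-7 WT values differed by -0.33 (SE 0.28) on the log2 scale. That difference did not pass the threshold (edgeR interaction over 16598 genes, adjusted p = 0.956). The labels do not give which strain's alleles each mixed-background kidney carried at these genes. The part of strain in the let-7 comparison was not tested.

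The WT kidneys of both models differ in strain label, colony and exposure to doxycycline, which cannot be told apart. Between them, 2.82% of 15850 genes were higher in let-7 WT and 1.97% lower at an unadjusted p below 0.01, and 1.19% had an adjusted p below 0.05. Gpr137b was higher in let-7 WT by a log2 difference of 0.87 (SE 0.20), or 1.83-fold (edgeR p = 0.00148 and adjusted p = 0.0848; exact permutation test, two-sided, p = 0.1, the smallest possible). It was higher in all 3 let-7 WT kidneys than in all 3 controls. Sugct differed by -0.21 (SE 0.28) and Gpr137b-ps by 0.42 (SE 0.20), given without a test.

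The share of the pair's counts that fell to Gpr137b-ps set the copies against each other within a kidney. It was 50.6%, 42.4% and 43.6% in controls and 54.2%, 56.5% and 53.7% in LIN28B Wt1 kidneys, so every LIN28B Wt1 kidney was above every control. The 95% Wilson intervals, which cover counting error only, were 48.93% to 52.239% for the highest control and 51.968% to 55.355% for the lowest LIN28B Wt1 kidney. The means were 45.6% ± 4.4 and 54.8% ± 1.49 (SD, n = 3 each), a difference of 9.24 percentage points (exact permutation test, two-sided, p = 0.1, the smallest possible). In let-7 WT kidneys the share was 49.0%, 31.5% and 35.1%, and the kidney at 49.0% was the one with the highest Sugct. Among let-7 KO kidneys the share was 8.28%, 5.71% and 8.77%.

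**Figure D3:**
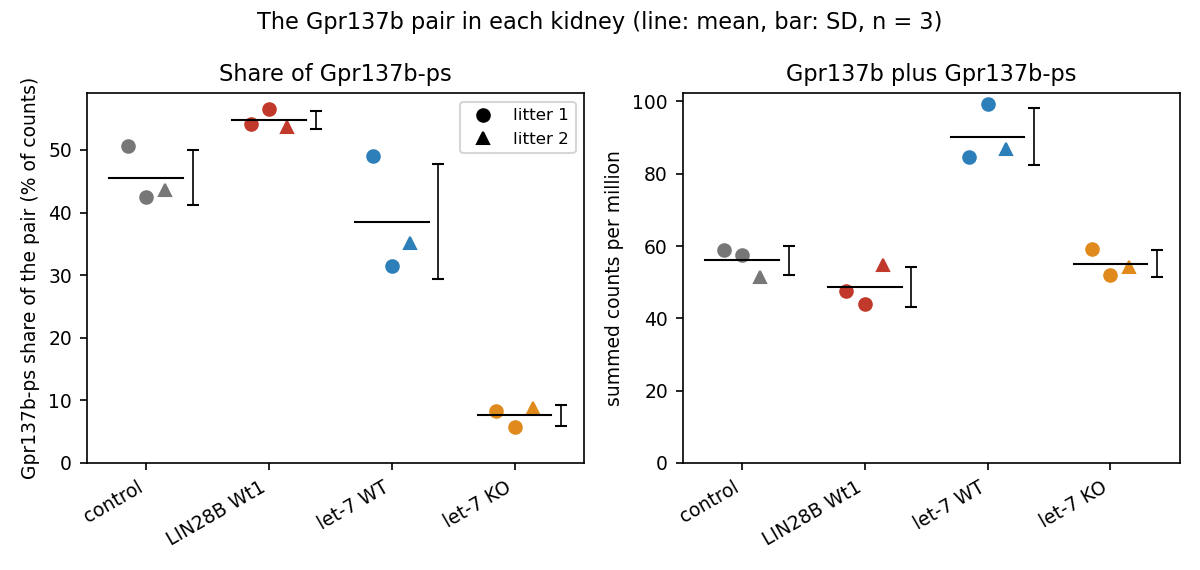
Share of Gpr137b-ps in the summed counts of Gpr137b and Gpr137b-ps (left, percent) and summed CPM of both (right) in each kidney by group, where lines are means and bars are SD (n = 3). The share is below 10% only in let-7 KO kidneys, and the sum is highest in let-7 WT kidneys.

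The sum of both copies does not change where a read is given to one copy or the other, but it does where shared reads were discarded or counted for both. The sum was 56.0 ± 3.92 CPM in controls and 48.8 ± 5.52 CPM in LIN28B Wt1 kidneys, which overlapped (SD, n = 3 each; exact permutation test, two-sided, p = 0.2, smallest possible 0.1). In let-7 WT kidneys it was 84.5, 99.4 and 86.9 CPM and 59.1, 51.9 and 54.3 CPM in let-7 KO. The let-7 KO sum lay below every let-7 WT kidney, whereas Gpr137b alone overlapped between those groups. That sum includes Gpr137b-ps, which was chosen for its fall in these let-7 KO kidneys, so the difference carries no test.

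The other genes of glutarate, lysine, hydroxylysine and tryptophan breakdown, enzymes and the transporters Slc25a21 and Slc13a3, were examined as a list of 29. In LIN28B Wt1 kidneys 6 of 28 tested were lower and 1 was higher, with a median log2 fold change of -0.33 against -0.02 over all genes, beside the 4.08% and 3.25% of all genes. Aadat, which transaminates 2-aminoadipate and kynurenine, fell by 0.90 on the log2 scale (SE 0.18, edgeR adjusted p = 0.0491). Pipox, an oxidase of pipecolate, had a log2 fold change of -1.12 (SE 0.23), and Etfdh, which passes electrons from glutaryl-CoA and other dehydrogenases to ubiquinone, had one of -0.58 (SE 0.13). Acmsd, which diverts tryptophan breakdown away from NAD synthesis, Hykk, a hydroxylysine kinase, and Dld, a subunit of the 2-oxoacid dehydrogenases, were lower by log2 changes of -3.22 (SE 0.85), -0.75 (SE 0.19) and -0.43 (SE 0.12). Acmsd was near the floor in LIN28B Wt1 kidneys, at 1.68 ± 2.20 against 15.8 ± 2.95 CPM (SD, n = 3 each). Of the 6 lower genes only Aadat had an edgeR adjusted p below 0.05. The others ran from 0.0548 (Pipox) to 0.113 (Dld). Crym, a ketimine reductase that also binds thyroid hormone, rose from 16.2 ± 2.20 to 47.6 ± 6.15 CPM (SD, n = 3 each; log2 fold change 1.56, SE 0.19, edgeR adjusted p = 0.00804).

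In let-7 KO kidneys 0 of 27 tested genes of that list were called by edgeR, with a median of -0.11 against -0.02 over all genes. Of all genes, 1.1% were called higher and 1.63% lower. At an unadjusted p below 0.05 edgeR gave 4, and DESeq2 called 3 at 0.01. Gcdh, the step that consumes glutaryl-CoA, was among those with no call. In let-7 WT against C57BL/6 controls 6 of 27 were higher, Aass, Aadat, Etfdh, Pipox, Slc25a21 and Slc13a3, and 0 were lower, beside the 2.82% and 1.97% of all genes, with a median of 0.22 against -0.01 over all genes. None of the 6 had an adjusted p below 0.05 in edgeR. Sugct itself had a lower mean in let-7 WT than in controls, with overlapping groups.

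Among 26 genes of the Gpr137 family and of lysosomal mTORC1 signalling, 2 fell and 0 rose in LIN28B Wt1 kidneys, beside the 4.08% and 3.25% of all genes, with a median of -0.11 against -0.02 over all genes. These were the lysosomal membrane glycoproteins Lamp1, from 923 ± 45.7 to 597 ± 30.6 CPM (log2 fold change -0.63, SE 0.11, edgeR adjusted p = 0.0339), and Lamp2, with a log2 fold change of -0.66 (SE 0.12, edgeR adjusted p = 0.035). In let-7 KO kidneys only Tfe3, a transcription factor of lysosomal genes, was called, with a log2 fold change of -0.95 (SE 0.22) and an edgeR adjusted p of 0.345. This 1 lower gene of 26 stands beside the 1.63% of all genes called lower and 1.1% called higher. In the comparison of WT kidneys edgeR called 0 of 26 genes at p below 0.01 and 3 at an unadjusted p below 0.05, DESeq2 called 2 at 0.01, and the median was 0.14. Of all genes, edgeR called 2.82% higher and 1.97% lower there.

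Markers of the proximal tubule moved with Sugct in LIN28B Wt1 kidneys. Of 10 such markers 7 were lower and 0 higher, beside the 4.08% and 3.25% of all genes, with a median log2 fold change of -0.93, and 3 of the 7 had an adjusted p below 0.05 in edgeR. Their summed level was 2626 to 2697 CPM in controls and 1237 to 1474 CPM in LIN28B Wt1 kidneys. Slc34a1, the phosphate carrier, fell from 1162 ± 10.9 to 506 ± 19.1 CPM (SD, n = 3 each; edgeR adjusted p = 0.000977), and no marker of the list was at 0 in any kidney. Taken relative to the mean log2 CPM of the 10 markers in the same kidney, an alternative chosen after seeing the data, Sugct was -0.54, -0.55 and -0.47 in controls and -0.78, -0.26 and -0.72 in LIN28B Wt1 kidneys. The groups overlapped, and the difference was -0.07 on the log2 scale (exact permutation test, two-sided, p = 0.8). In whole kidney, fewer cells of a type and less RNA per cell cannot be told apart.

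In let-7 KO kidneys 3 of the same 10 markers were lower (Slc5a2, Slc5a12 and Slc22a8), beside the 1.63% of all genes, and 0 had an adjusted p below 0.05 in edgeR. The markers had a median of -0.34 and summed levels of 2889 to 3242 CPM against 3652 to 4289 CPM in let-7 WT. Relative to the markers Sugct was -0.89, -1.78 and -1.83 in let-7 WT and -4.09, -4.51 and -4.22 in let-7 KO, a difference of -2.77, given without a test because these kidneys chose Sugct. In the comparison of WT kidneys 6 of the 10 markers were higher in let-7 WT and 0 lower, with a median of 0.50. These counts stand beside the 2.82% and 1.97% of all genes, and 3 markers had an adjusted p below 0.05 in edgeR.

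**Figure D4:**
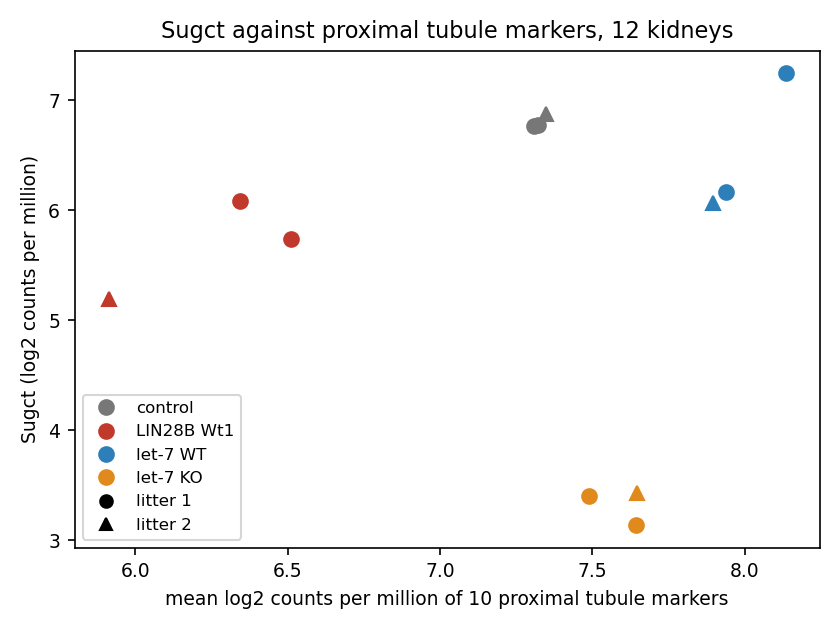
Sugct (vertical axis, log2 CPM) against the mean of 10 proximal tubule markers (horizontal axis, log2 CPM) in the 12 kidneys, where colours are groups, circles litter 1 and triangles litter 2. LIN28B Wt1 kidneys lie lower on both axes than their controls, and let-7 KO kidneys, with marker means of 7.49 to 7.65, lie far below let-7 WT kidneys, with marker means of 7.90 to 8.14.

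Other cell markers also moved in LIN28B Wt1 kidneys. Cap mesenchyme markers, which label nephron progenitors, were higher for 6 of 7, with summed levels of 368 to 433 CPM against 117 to 119 CPM in controls. Of 4 endothelial markers 3 were lower, of 4 stromal markers 2 (Pdgfrb and Pdgfra), of 5 macrophage markers 1, of 4 collecting duct markers 1, and of 4 podocyte markers 0 in both edgeR and DESeq2 (1 at an unadjusted p below 0.05). These counts stand beside the 4.08% of all genes called lower and 3.25% called higher. The other two stromal markers, Foxd1 and Meis1, had log2 fold changes of 0.70 (SE 0.26) and 0.46 (SE 0.19), which did not pass the threshold.

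In let-7 KO kidneys 1 of 7 cap mesenchyme markers (Gdnf) was higher and 2 of 4 collecting duct markers (Calb1 and Hsd11b2) were lower, beside the 1.1% and 1.63% of all genes, and edgeR called 0 podocyte, stromal, macrophage or endothelial markers. Among these, 2 podocyte markers had an unadjusted p below 0.05 and DESeq2 called 1 of them at 0.01, and the stromal, macrophage and endothelial lists gave 0 in both counts. Aqp2, the water channel of the collecting duct, had a log2 fold change of 0.55 (SE 0.31) that did not pass the threshold. The part of these markers in the values of Sugct and Gpr137b was not tested beyond the proximal tubule list.

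No gene nearest to either locus passed the threshold in let-7 KO kidneys in edgeR. Of all genes, 1.1% were called higher and 1.63% lower in that comparison. Around Sugct 6 of the 10 nearest genes in the table were tested, and their log2 fold changes ran from -0.03 to 1.11 with a median of 0.26. Of these, edgeR gave 0 at an unadjusted p below 0.05 and DESeq2 called 0 at 0.01. Around the Gpr137b pair 9 of 10 were tested, from -0.73 to 2.14 with a median of -0.46. There edgeR gave 2 at an unadjusted p below 0.05, and DESeq2 called 1 at 0.01. The 2 were Lgals8, a galectin, at -0.73 (SE 0.25) and Nid1, a basement membrane protein, at -0.58 (SE 0.24). Ryr2 (chr13:11553102-12106945), farther out than the listed genes on the Gpr137b-ps side, was outside this list. Its log2 fold change in let-7 KO was -3.49, at a mean of 36.3 counts. Between the copies lie Prl2c3, Prl2c2 and Prl2c5, which were not among the nearest genes examined. In LIN28B Wt1 kidneys the same Lgals8 and Nid1 were called lower near the Gpr137b pair, with log2 fold changes of -0.75 (SE 0.17) and -0.62 (SE 0.17). They were 2 of 10 tested genes, and 0 were higher, beside the 4.08% of all genes called lower and 3.25% called higher. Near the pair edgeR gave 3 at an unadjusted p below 0.05 and DESeq2 called 3 at 0.01, and Heatr1, a factor of ribosome biogenesis, had a log2 fold change of 0.93 (SE 0.34) that did not pass the threshold. In the same comparison 0 of the genes around Sugct were called by edgeR or DESeq2 (1 at an unadjusted p below 0.05 in edgeR). Between the WT groups Lgals8 was higher in let-7 WT (0.53, SE 0.16). Gli3, a hedgehog effector 1127.4 kb from Sugct, was lower (-0.87, SE 0.23). These were 1 of 10 tested genes around the pair and 1 of 6 around Sugct. Of all genes, 2.82% were called higher and 1.97% lower.

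**Figure D5:**
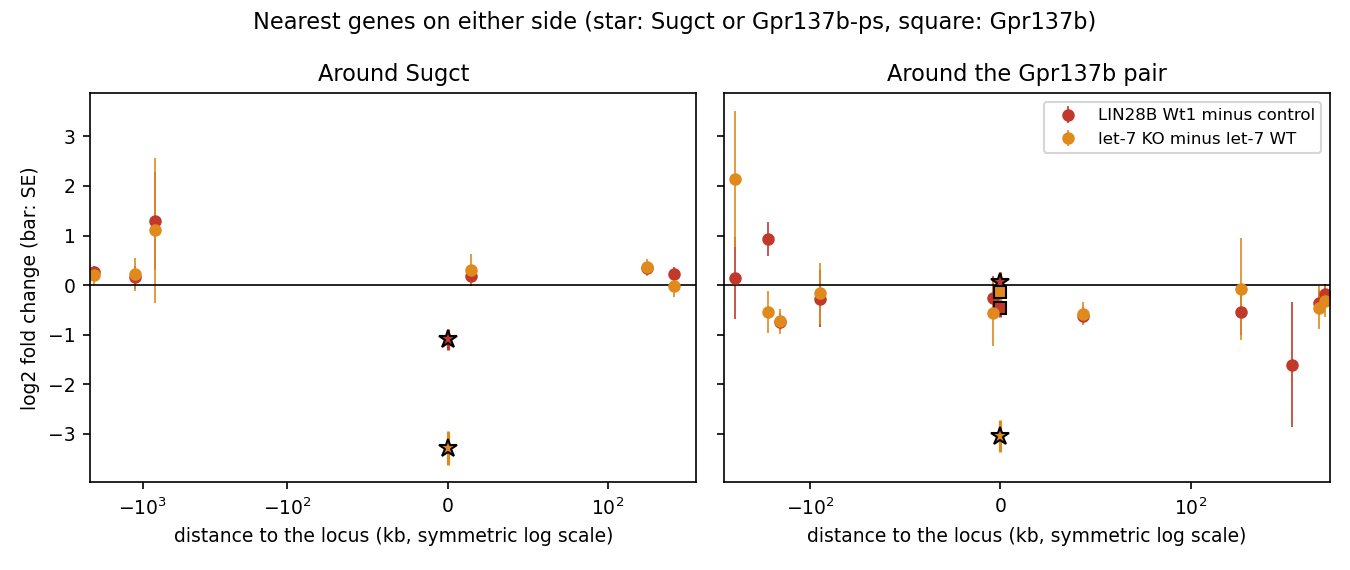
Log2 fold change (vertical axis; bars are SE) of the tested genes among the 10 nearest to Sugct (left) and to the Gpr137b pair (right) against distance in kilobases on a symmetric log scale, with negative distances towards the start of the chromosome. The let-7 KO stars of Sugct and Gpr137b-ps lie near -3, and the lowest of the plotted neighbours in that comparison, Lgals8, lies at -0.73. Ryr2, farther out on the Gpr137b-ps side, is not plotted.

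Mplkip overlaps the start of Sugct on the opposite strand (chr13:17695192-17699748). Whether the counting used strand is not given in the sources used here. Mplkip held 2338 to 4120 counts per kidney and had log2 fold changes of 0.19 (SE 0.15) in LIN28B Wt1 and 0.23 (SE 0.21) in let-7 KO, neither of which passed the threshold.

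Over the 12 kidneys, as a description of levels that share libraries and groups, Sugct and Gpr137b-ps had a Pearson correlation of 0.92 in log2 CPM, Sugct and Gpr137b of -0.35, and the 2 copies of -0.37. The first value follows from the choice of both genes for their low level in the same let-7 KO kidneys, which are among the 12, and those kidneys also shape the likeness of other genes to Sugct and Gpr137b-ps. Among 14061 genes with a mean of at least 1 CPM, those most alike to Sugct were Vps13b (0.91), Gpx6 (0.90) and Serpine2 (0.89). Those most alike to Gpr137b-ps were Dusp4, Tmem151b and Mpp2 (0.91 to 0.92), and those most alike to Gpr137b were Cpb2, Chac2 and Glrx (0.95 each).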

How the data were processed

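The authors isolated RNA with Trizol from each whole kidney, made libraries with a SMARTer Ultra Low RNA kit and sequenced them on a HiSeq 2500. The submitters' processing notes name cutadapt, TopHat2 2.0.9, Bowtie2, SAMtools 0.1.19, HTSeq and build mm10. The authors deposited unnormalized read counts by gene symbol. Gene annotation, strand setting and treatment of multiply aligned reads are not given in the sources used here.

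Counts were filtered with filterByExpr (minimum count 10, minimum total 15), scaled by TMM and tested by quasi-likelihood in edgeR 4.0.16 (R 4.3.3), separately for each comparison. Benjamini-Hochberg adjustment covered all genes tested. The script was tested on simulated data. SE was obtained as log2 fold change over the root of F. Replicates were separate kidneys. Log2 CPM used a prior count of 2. Members and lists were chosen with earlier results of these data known. Named genes were the members, the 3 most correlated genes per member, and list members and nearest genes (5 per side) with p below 0.01, at most 8 per list. Foxd1, Meis1, Aqp2, Heatr1, Gcdh and the chromosome 13 genes beside the members in rank were named after their values were seen. Gene models were GENCODE M21 (GRCm38), and the copies were aligned with Biopython 1.88. Alternatives were DESeq2 1.42.0, RLE scaling, no filter, 1 fit of all 12 kidneys, a litter block and leaving out each kidney. Deviations from group means correlated within litters at a mean of -0.039 (LIN28B groups) and -0.0012 (let-7 groups). Between litters the means were 0.048 and 0.0016. The deviations of 3 kidneys cancel within each group, which draws such values together, so they cannot decide whether litters pair the kidneys. The main fits left litter out, and the litter block was an alternative.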

Additional observations from a re-analysis of the deposited data

How the results depend on the processing

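Sugct and Gpr137b in LIN28B Wt1, Sugct and Gpr137b-ps in let-7 KO, and Gpr137b between the WT groups kept their direction under DESeq2, RLE scaling, no filter, 1 fit of 12 kidneys and each kidney left out, and the tested ones kept their side of an unadjusted p of 0.01. Litter as a replicate block gave -1.13 for Sugct in LIN28B Wt1 (edgeR adjusted p = 0.0659) and moved no member past that threshold. Relative to proximal tubule markers, added after seeing the data, Sugct differed by -0.066 between the LIN28B groups and by -2.77 between the let-7 groups. With kidneys left out, Sugct in let-7 KO ranged from -3.50 to -2.81 (the latter without the let-7 WT kidney highest for Sugct) and between the WT groups from -0.70 (without that same kidney) to -0.0089. Small values changed sign, Gpr137b-ps in LIN28B Wt1 ranging from -0.023 to 0.19 (-0.0063 without the litter 2 control, -0.023 without the litter 2 LIN28B Wt1 kidney) and Gpr137b in let-7 KO from -0.30 to 0.025 (the latter without the let-7 WT kidney highest for Gpr137b). The cause was not tested. Glutarate list calls in LIN28B Wt1 ranged from 3 (without the litter 1 control with 4771 Sugct counts) to 8, with 2 at an adjusted p below 0.05. In let-7 KO they ranged from 0 to 4 (without the litter 1 KO kidney with 635 Sugct counts), with 3 by DESeq2 and 1 without the filter. Lysosomal list calls in let-7 KO ranged from 1 to 2 (without that same KO kidney), with 0 at an adjusted p below 0.05. Proximal tubule calls fell from 7 to 4 without the litter 2 control in LIN28B Wt1, and from 3 to 1 in let-7 KO without that KO kidney. With 3 kidneys per group an exact test cannot go below 0.1.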

Other observations

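Both sexes were present among the kidneys, and the labels do not give the sex of each. The let-7 WT kidney with the highest Sugct and Gpr137b-ps held 2350 counts of Xist, an RNA of females, and 0 of the Y-linked Ddx3y, whereas the other two let-7 WT kidneys held 1 and 22 counts of Xist and 2660 and 6098 of Ddx3y. Among the C57BL/6 controls, the kidney with 4046 counts of Ddx3y had 117 CPM of Sugct, and both kidneys with 3 counts of Ddx3y had 109 CPM. In let-7 KO the kidney with 2532 counts of Xist had 10.5 CPM of Sugct, between the 8.74 and 10.8 CPM of the other two. The part of sex in these values was not tested.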
